A study of Saccharomyces cerevisiae with 6 samples.

Results

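The 42 genes described here encode the machinery that carries proteins into the endoplasmic reticulum (ER) of the budding yeast Saccharomyces cerevisiae, folds them there and ships them on to the Golgi. They were chosen by name, as ER chaperones and prolyl isomerases, disulfide formation, the regulators HAC1 and IRE1, the translocon, signal peptidase, cargo receptors and the COPII coat. Of the 5379 genes named on the array, 41 belonged to this set. JEM1, a J-protein of the ER, had no probe under its name in the annotation used. The exposed cultures were of strain S288C, grown in YPD medium at 25 °C to the exponential phase and then held in 1.8 mM formaldehyde for 2 h. Their untreated counterparts, of the same strain in the same medium, were grown on for 2 h with nothing added. Polyadenylated RNA of an exposed culture (Cy5) and of an untreated culture (Cy3) shared 1 two-colour array, and 3 independent biological samples gave 3 arrays, each read by the scanner at a high and again at a low laser power. Since only ratios were used, levels of marker genes could not be checked against the strain label.

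Proteins bound for the yeast cell surface, vacuole or secretory organelles enter the ER through the Sec61 channel, lose their signal peptide, and fold with the help of the Hsp70 chaperone Kar2, prolyl isomerases and protein disulfide isomerases. Cargo receptors then sort them into vesicles that the COPII coat shapes from the ER membrane. When unfolded proteins build up in the ER, the sensor Ire1 splices HAC1 mRNA, and the Hac1 protein made from it switches on many of these genes, with KAR2, PDI1, EUG1 and ERO1 among the well-known targets of this unfolded protein response in yeast.

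All values are log2 ratios of formaldehyde-exposed over untreated cells, so that 1 is a doubling. This direction is the likely one, from the labels, in which channel 1 of every array is the exposed sample. It is not stated for the table, and were it the opposite, each sign given here would turn. No array had the dyes swapped, so that a dye effect of single genes cannot be told apart from the exposure. A gene was tested where it had a value on all 3 arrays, which was the case for 2133 genes. Higher and lower are used for a mean log2 ratio past an adjusted p of 0.05 by limma, Benjamini-Hochberg over those 2133 genes. Array 1 had a value for 2498 genes, array 2 for 3329 and array 3 for 4292. Over all 2133 genes the median log2 ratio was 0.18, not 0.

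Most of the tested ER and transport genes did not pass, and a few with large changes stood among them. Of the 32 that could be tested, 7 were higher, 6 were lower and 19 did not pass. Of all 2133 genes tested, 37.2% were higher and 25.3% lower, or 62.5% in all. The median log2 ratio of the 32 was 0.02, against 0.18 over all genes tested. Mean log2 ratios of 18 of the 32 (56.3%) lay within 0.5 of 0, and 35.8% of all genes tested did. Changes of at least 2-fold were called upward for ERO1, ERV29 and CPR5 and downward for SEC63, LHS1 and SEC31; 22.0% of all genes tested passed upward at that size and 15.7% downward. All 13 genes that passed had the same sign on the 3 arrays. With every scan centred on its own median, which lowers all values, 5 genes were higher and 12 lower (31.5% and 30.1% of all genes tested), so the balance of higher against lower depends on the zero chosen. The genes then added as lower were SSS1, SBH1, SPC3, ERP1, ERP2 and SEC13, and ERV14 and SEC23 were no longer called.

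**Figure D1:**
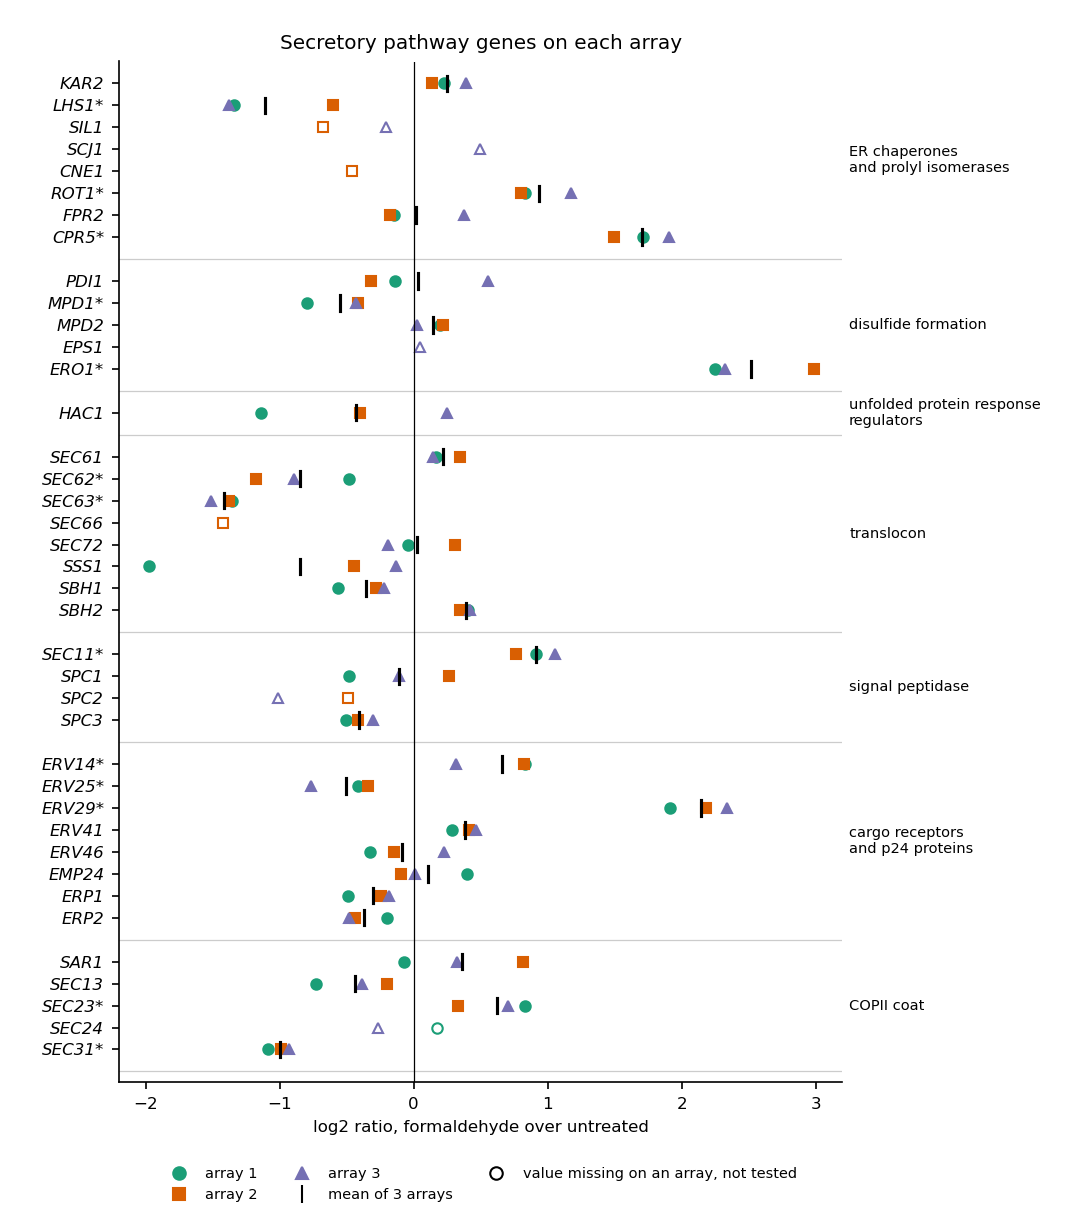
Log2 ratio of formaldehyde-exposed over untreated cells (horizontal axis) for each ER and transport gene with a value (rows, grouped by role). Circles, squares and triangles are arrays 1, 2 and 3, a vertical bar is the mean of the 3 arrays, open symbols are genes that lacked a value on an array, and an asterisk marks an adjusted p under 0.05 (limma). ERO1, ERV29 and CPR5 stand to the right of all other genes on every array, while SSS1 and HAC1 spread widely.

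Among the chaperones and prolyl isomerases, CPR5 and ROT1 were higher and LHS1 was lower, out of 5 tested. The shares over all genes tested were 37.2% higher and 25.3% lower. CPR5 (YDR304C), the cyclophilin-type prolyl isomerase of the ER, had log2 ratios of 1.71, 1.5 and 1.90 on arrays 1, 2 and 3. Its mean was 1.71 ± 0.20 (SD, n = 3), or 3.26-fold (adjusted p = 0.00016), the 200th highest of the 2133 genes. FPR2 (YDR519W), a prolyl isomerase of the FK506-binding type, was at -0.15, -0.17 and 0.37, on both sides of 0, with a mean of 0.02 ± 0.31 (95% interval -0.42 to 0.46). CPR5 exceeded FPR2 on every array, by 1.53 to 1.86 on the log2 scale.

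KAR2 (YJL034W), the ER Hsp70 that drives import and folding, had log2 ratios of 0.22, 0.14 and 0.39. Those values were above 0 on each array, but the mean of 0.25 ± 0.13 did not pass (adjusted p = 0.22) and lay close to the median of all genes tested. Its 95% interval ran from -0.14 to 0.64. LHS1 (YKL073W), an Hsp70 relative that exchanges nucleotide on Kar2, had values of -1.34, -0.60 and -1.38. Its mean fell by 1.11 ± 0.44, to 0.464-fold (adjusted p = 0.00317), with array 2 nearer to 0 than the others. KAR2 stood above LHS1 on every array, by 0.74 to 1.77. SIL1, the other nucleotide exchange factor of Kar2, had a value on 2 arrays only, -0.68 on array 2 and -0.21 on array 3, and was not tested. Its scans of array 3 differed in sign, at -0.69 (high power) and 0.28 (low power).

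ROT1 (YMR200W), an ER membrane protein needed for protein folding and cell wall assembly, had log2 ratios of 0.83, 0.80 and 1.17. Its mean of 0.94 ± 0.21, or 1.91-fold, was higher (adjusted p = 0.00274). The J-protein SCJ1 was seen on array 3 alone, at 0.50, and the calnexin CNE1 on array 2 alone, at -0.46. For CNE1 the pair of scans behind that value differed, with -0.85 at high power and -0.07 at low power, so its size is poorly fixed.

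In disulfide formation, ERO1 was higher and MPD1 lower, out of 4 tested, against 37.2% and 25.3% of all genes tested. ERO1 (YML130C), the thiol oxidase that passes oxidising equivalents to protein disulfide isomerase, had log2 ratios of 2.25, 2.99 and 2.32. The mean of 2.52 ± 0.41 corresponds to 5.73-fold (95% interval of the log2 ratio 2.04 to 3.00, adjusted p = 5.87e-05) and was the 69th highest of all genes tested. No other of the 32 tested genes had a larger mean.

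PDI1 (YCL043C), the main protein disulfide isomerase, had log2 ratios of -0.14, -0.31 and 0.56, below 0 on 2 arrays and above it on the third. Its mean was 0.03 ± 0.46 and did not pass (95% interval -0.47 to 0.54, adjusted p = 0.90). The 2 scans of array 2 put it at -0.71 (high power) and 0.08 (low power). ERO1 stood above PDI1 by 1.76 to 3.30 on the 3 arrays, and that gap was not tested.

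The PDI relatives had smaller values than ERO1. MPD1 (YOR288C) had log2 ratios of -0.79, -0.42 and -0.43 and fell by 0.55 ± 0.21 (0.684-fold, adjusted p = 0.0275). That call did not hold when array 1 (-0.42, adjusted p = 0.076), array 2 (-0.61, adjusted p = 0.084) or array 3 (-0.61, adjusted p = 0.069) was left out. MPD2 (YOL088C) was at 0.19, 0.22 and 0.02 and did not pass (mean 0.15 ± 0.11, 95% interval -0.24 to 0.53). EPS1 had 1 value, 0.05 on array 3. EUG1, the PDI1 relative among the Hac1 targets, had no value on any array.

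ERO1 lies tail to tail with YML131W, a gene known by its systematic name, whose log2 ratios were 4.55, 4.38 and 4.72. On its other side COX14, a mitochondrial protein needed for cytochrome oxidase, rose by 0.93 ± 0.09 (adjusted p = 0.00205). The sources used here do not say whether the probes tell the strands apart, and the part of the neighbour's signal in the ERO1 value was not tested. SPC1, a signal peptidase subunit, is placed the same way beside MET3 (ATP sulfurylase), whose mean was 4.86 ± 0.09, and SPC1 itself had a mean of -0.11 ± 0.37. Other genes of the set also have a tail-to-tail neighbour, and a single picked pair says nothing about the ERO1 value. The neighbours named here were looked up after the values had been seen, from the gene order of the R64 assembly of S288C.

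HAC1 (YFL031W), which encodes the transcription factor of the unfolded protein response, had log2 ratios of -1.14, -0.40 and 0.25. The 3 arrays thus disagreed in sign, and the mean of -0.43 ± 0.69 did not pass (95% interval -1.06 to 0.21, adjusted p = 0.20). Its spread was wider than that of most genes: 92.1% of all genes tested had an SD at or under it. Both scans of each array gave HAC1 the same sign, at -0.86 and -1.41 on array 1 (high and low power), -0.48 and -0.32 on array 2, and 0.23 and 0.27 on array 3. With low power scans alone the test called it lower (-0.49, adjusted p = 0.0354), over 560 genes. The low power values still disagreed in sign, and that fit leaned on the pooled variance. It had 29.7 prior degrees of freedom, against 4.84 in the reported fit. Single arrays moved the HAC1 mean to -0.07 without array 1 (adjusted p = 0.78) and to -0.77 without array 3 (adjusted p = 0.060). A whole-transcript ratio does not show whether the mRNA was spliced, the step at which Ire1 acts.

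IRE1 itself, the sensor kinase and nuclease, had no value on any array, so HAC1 could not be set beside it. TRL1, the ligase that joins the HAC1 exons, had none either. PTC2, a phosphatase that acts on Ire1, was higher, with log2 ratios of 1.12, 1.17 and 1.12 and a mean of 1.14 ± 0.03, or 2.20-fold (adjusted p = 0.000776). Of the 4 well-known Hac1 targets named above, ERO1 was higher, KAR2 and PDI1 did not pass, and EUG1 had no value. Those 4 are examples and not a full list of targets, so they give no readout of the response. The lower genes of the set, LHS1 among them, were not sorted by whether Hac1 acts on them.

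**Figure D2:**
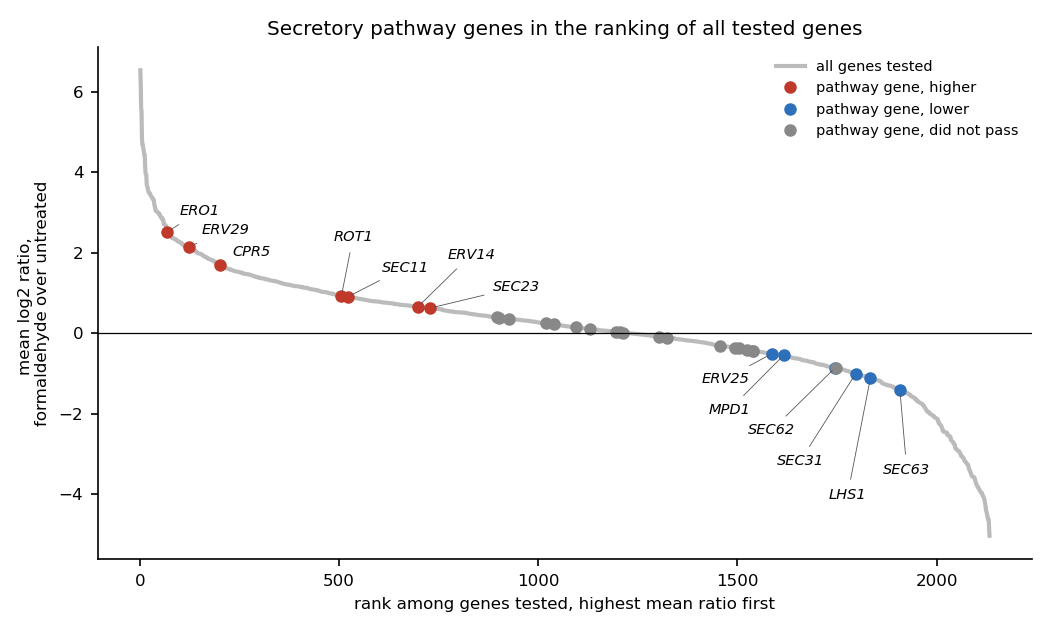
Mean log2 ratio (vertical axis) of all 2133 genes tested, ordered from the highest to the lowest (grey curve, horizontal axis is the rank), with the 32 ER and transport genes as points: red higher, blue lower, grey did not pass. ERO1, ERV29 and CPR5 lie among the 200 highest ranks, and the grey points lie in the flat middle of the curve, except SSS1 beside SEC62 at -0.85.

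In the translocon 2 of 7 tested genes were lower and none was higher, with a median log2 ratio of -0.36. That share of lower genes is close to the 25.3% over all genes tested. Of all genes tested 37.2% were higher, and their median was 0.18. SEC63 (YOR254C), a membrane J-protein that brings Kar2 to the channel, had log2 ratios of -1.36, -1.38 and -1.52. It fell by 1.42 ± 0.09, to 0.374-fold (adjusted p = 0.000296), the largest fall among the 32 tested genes and with nearly the same value on each array. SEC62 (YPL094C), its partner in post-translational import, had -0.48, -1.18 and -0.89 and fell by 0.85 ± 0.35 (adjusted p = 0.00717). Without array 2 its call did not hold (-0.69, adjusted p = 0.053).

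The remaining subunits of the Sec63 complex were less clear. SEC66 had 1 value, -1.42 on array 2. SEC72 (YLR292C) had log2 ratios of -0.04, 0.31 and -0.19, on both sides of 0, with a mean of 0.03 ± 0.25 (95% interval -0.39 to 0.44). On array 3 its high power scan gave -0.59 and its low power scan 0.20.

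Neither the pore nor its small subunits passed. SEC61 (YLR378C), the pore subunit, had log2 ratios of 0.17, 0.34 and 0.14 and a mean of 0.22 ± 0.11 (95% interval -0.17 to 0.60, adjusted p = 0.28). Its scans of array 3 differed, at -0.20 (high power) and 0.49 (low power). SEC61 exceeded SEC63 by 1.52 to 1.72 on the 3 arrays. SSS1 (YDR086C), the small gamma subunit, had values of -1.98, -0.44 and -0.13, all below 0 but far apart, and its mean of -0.85 ± 0.99 did not pass (adjusted p = 0.068). Array 1 weighed most in that mean, since the other arrays alone gave -0.29. SSS1 was called without array 2 (-1.05, adjusted p = 0.0119), with centred scans (-1.01, adjusted p = 0.0285) and where 2 arrays sufficed (-0.85, adjusted p = 0.0371). Of all genes tested, 98% of all genes tested had an SD at or under that of SSS1.

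The beta subunits of both channels of the yeast ER were tested. SBH1, of the Sec61 channel, had log2 ratios of -0.56, -0.28 and -0.22 (mean -0.36 ± 0.18, adjusted p = 0.10). Its 2 probes differed in order on the high power scans, at -0.46 and -0.21 on array 2 and at -0.03 and -0.41 on array 3. SBH2, of the related Ssh1 channel, had 0.41, 0.35 and 0.42 (mean 0.39 ± 0.04, adjusted p = 0.066). SBH2 exceeded SBH1 by 0.63 to 0.97 on the arrays, with neither gene past the threshold. They are related in sequence, and binding of one gene's cDNA to the other's probe was not tested.

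Signal peptidase cuts signal peptides off proteins as they enter the ER. SEC11 (YIR022W), its catalytic subunit, was higher, with log2 ratios of 0.91, 0.76 and 1.06 and a mean of 0.91 ± 0.15, or 1.88-fold (adjusted p = 0.00261). SPC3 (YLR066W), the other subunit essential for cleavage, had -0.50, -0.41 and -0.30, below 0 on each array, and did not pass at -0.41 ± 0.10 (adjusted p = 0.062). It was called lower with high power scans alone (-0.48, adjusted p = 0.0419) and with centred scans (-0.56, adjusted p = 0.0159). SEC11 stood above SPC3 by 1.18 to 1.42 on the arrays. SPC1 was at -0.48, 0.26 and -0.11 and did not pass. SPC2 had values on 2 arrays, -0.49 and -1.01 on arrays 2 and 3. Where genes with 2 arrays were admitted to the test, SPC2 was lower (-0.75, adjusted p = 0.0391). SIL1 (-0.44, adjusted p = 0.20) and SEC24 (-0.05, adjusted p = 0.90), admitted likewise, did not pass.

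Of 8 cargo receptors and p24 proteins, all tested, 2 were higher and 1 lower, against 37.2% and 25.3% of all genes tested. ERV29 (YGR284C), the receptor that loads soluble cargo into COPII vesicles, had log2 ratios of 1.91, 2.18 and 2.34. Its mean of 2.14 ± 0.22, or 4.42-fold (95% interval 1.74 to 2.55, adjusted p = 5.80e-05), ranked 123rd of all genes tested. ERV14 (YGL054C), a receptor for membrane proteins, had 0.83, 0.82 and 0.32 and was higher at 0.66 ± 0.29, or 1.58-fold (adjusted p = 0.0174). The call of ERV14 did not hold without array 2 (0.58, adjusted p = 0.11) or with centred scans (0.49, adjusted p = 0.061).

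ERV41 and ERV46 encode partners in a complex that cycles between ER and Golgi. ERV41 (YML067C) had log2 ratios of 0.29, 0.41 and 0.46 (mean 0.39 ± 0.09, adjusted p = 0.071). It was called with the 6 scans fitted separately and the array as a random block (adjusted p = 0.0353), and with low power scans alone (0.46, adjusted p = 0.0157). ERV46 (YAL042W) had -0.33, -0.15 and 0.22 (mean -0.08 ± 0.28, 95% interval -0.51 to 0.34).

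The p24 proteins EMP24, ERV25, ERP1 and ERP2 form a complex that takes GPI-anchored proteins into vesicles. ERV25 (YML012W) had -0.41, -0.34 and -0.76 and fell by 0.51 ± 0.23 (adjusted p = 0.0382). That call was lost when array 2 (-0.59, adjusted p = 0.096) or array 3 (-0.38, adjusted p = 0.17) was left out, and where 2 arrays sufficed (adjusted p = 0.064). EMP24 was at 0.40, -0.09 and 0.01, ERP1 at -0.49, -0.24 and -0.18, and ERP2 at -0.20, -0.44 and -0.48. None of these 3 passed, with means of 0.11, -0.31 and -0.37, although ERP1 and ERP2 were below 0 on every array. ERV29 exceeded ERV25 by 2.32 to 3.10 on the arrays.

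In the COPII coat the inner and outer layers each held a gene past the threshold, in opposite directions. SEC23 (YPR181C), the inner-coat subunit that activates GTP hydrolysis by Sar1, had log2 ratios of 0.83, 0.33 and 0.71 and was higher at 0.62 ± 0.26, or 1.54-fold (adjusted p = 0.0193). Without array 3 it was not called (0.58, adjusted p = 0.088), nor with centred scans (0.46, adjusted p = 0.064), nor with high power scans alone (0.47, adjusted p = 0.057). SEC31 (YDL195W), of the outer cage, had -1.09, -0.99 and -0.93 and fell by 1.00 ± 0.08, to 0.50-fold (adjusted p = 0.00146), with the arrays close together. SEC23 stood above SEC31 by 1.32 to 1.92 on the arrays.

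SEC13 (YLR208W), which pairs with SEC31 in the cage, had -0.73, -0.20 and -0.38 and did not pass (mean -0.44 ± 0.27, adjusted p = 0.070). SAR1 (YPL218W), the GTPase that starts coat assembly, had -0.07, 0.82 and 0.33 (mean 0.36 ± 0.44, adjusted p = 0.18), and was called without array 1 (0.57, adjusted p = 0.0171) but lay at 0.13 without array 2 (adjusted p = 0.74). SEC24, the cargo-binding subunit, had values on arrays 1 and 3, at 0.17 and -0.27, and was not tested.

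High and low power values were both present for 62 gene and array pairs of the set, with a median absolute difference of 0.20 on the log2 scale, against 0.21 over all genes. In 9 of those pairs the scans lay more than 0.5 apart, and the low power value was the higher in 6 of the 9. The genes were HAC1 and ERV29 on array 1, CNE1, ERV14 and PDI1 on array 2, and SEC23, SEC61, SEC72 and SIL1 on array 3. For ERV29 the pair was 2.16 (high power) and 1.66 (low power), far above 0 in each.

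**Figure D3:**
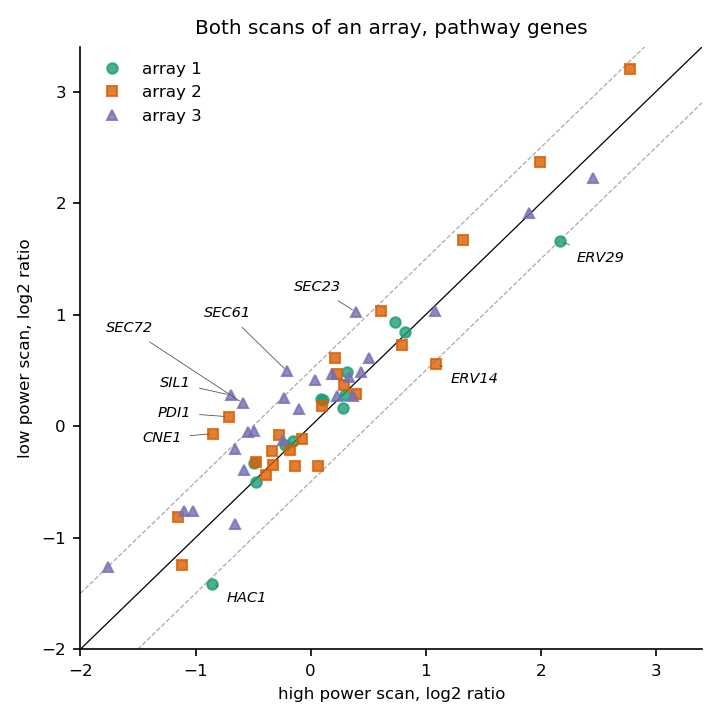
Log2 ratio of the low power scan (vertical axis) against that of the high power scan of the same array (horizontal axis) for ER and transport genes with both values. Circles, squares and triangles are arrays 1, 2 and 3, the solid line is equality, and dashed lines mark a difference of 0.5; the 9 named points lie beyond them.

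Related lists of the same route, 71 genes in all, were read by counts alone. Of the 39 tested, 17 were higher and 8 lower, which compares with 37.2% and 25.3% of all genes tested. With centred scans 12 were higher and 10 lower, against 31.5% and 30.1% of all genes tested. Without array 3 the number higher was 11, and 28.8% of all genes tested were then higher. In ER-associated degradation, the pathway that returns misfolded proteins to the cytosol for the proteasome, 6 of 9 tested genes were higher and 1 lower, with a median of 0.78. That median is the mean of DFM1, which did not pass (adjusted p = 0.056) and was at -0.16 on array 1. HRD1 did not pass either, at 0.06 ± 0.01, and both genes were named after their values were seen. UFD1 and NPL4, cofactors of the Cdc48 ATPase that extracts substrates, rose by 1.73 ± 0.16 and 1.58 ± 0.11, and the ubiquitin-conjugating enzyme UBC7 rose by 1.68 ± 0.10. YOS9, a lectin that recognises misfolded glycoproteins, named after its value was seen, fell by 0.77 ± 0.15.

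Of 5 tested genes for insertion of tail-anchored proteins, 3 were higher and 1 lower, against 37.2% and 25.3% of all genes tested. The co-chaperone SGT2 rose by 1.61 ± 0.25 and its partner MDY2 by 1.17 ± 0.59, with MDY2 at 1.85 on array 1 and at 0.84 and 0.81 on the others. GET4, which binds MDY2, fell by 0.98 ± 0.45. Of the signal recognition particle and its receptor 2 of 8 genes could be tested. SRP72 fell by 0.87 ± 0.12, and SRP21 did not pass.

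COPI coats the vesicles that return from the Golgi to the ER. Of 8 tested COPI and retrieval genes 5 were lower and 1 higher, with a median of -0.69, where 25.3% of all genes tested were lower and 37.2% higher. ARF1, the GTPase that recruits the coat, fell by 1.08 ± 0.39. GLO3, which activates GTP hydrolysis by Arf1, fell by 1.07 ± 0.13, and the coat subunit SEC21 fell by 0.76 ± 0.04. The others that were lower, named after their values were seen, were the coat subunits SEC27 (-0.72 ± 0.34) and SEC28 (-0.66 ± 0.39), the call of SEC28 not holding without array 3 (-0.45, adjusted p = 0.13). The 1 higher gene, the coat subunit RET2, named likewise, was at 0.58 ± 0.31 and was not called without array 3 (0.43, adjusted p = 0.15) or with centred scans (0.42, adjusted p = 0.080).

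Among tethers and membrane fusion proteins 4 of 8 tested genes were higher and none lower. Over all genes tested, 37.2% were higher and 25.3% lower. SEC17, which helps to take apart SNARE complexes, rose by 1.40 ± 0.15 and the TRAPP tether subunit BET3 by 1.17 ± 0.29. TRS20, another TRAPP subunit, was higher at 0.55 ± 0.23 but not without array 2 (0.44, adjusted p = 0.21) or with centred scans (0.38, adjusted p = 0.10). Of 5 tested genes among other p24 and cargo receptors, ERP5 rose by 1.01 ± 0.24 and SVP26 by 0.76 ± 0.30. SVP26 was not called without array 3 (0.59, adjusted p = 0.061). Adjusted p of the list genes named here as higher or lower lay between 0.000131 and 0.0302.

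**Figure D4:**
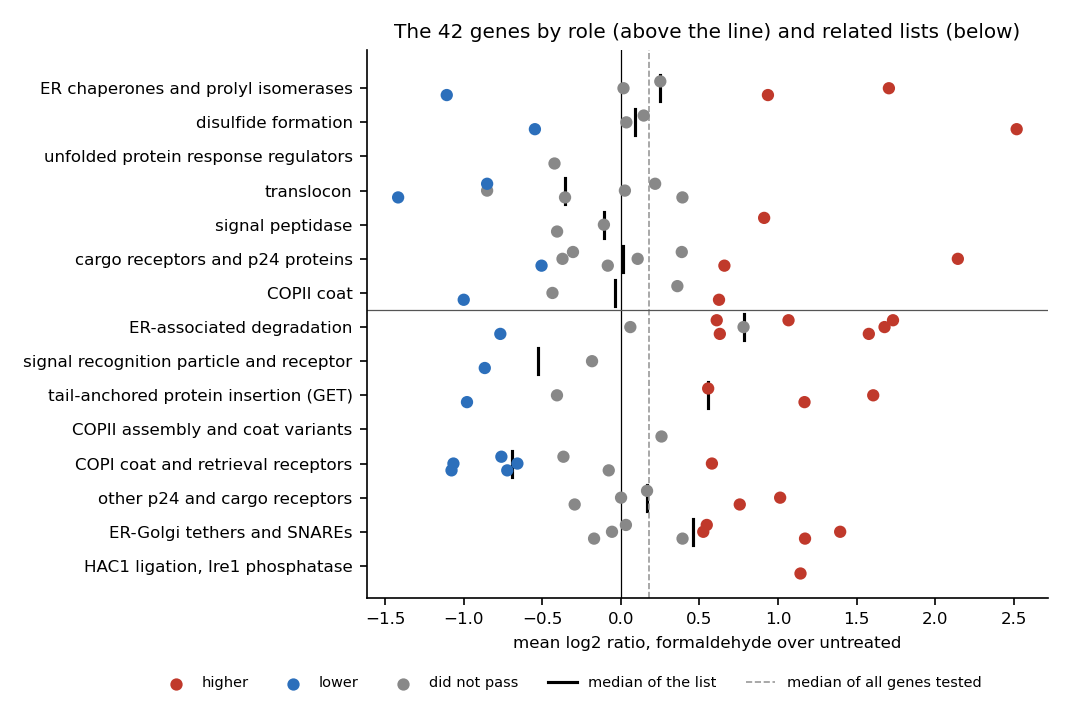
Mean log2 ratio of formaldehyde-exposed over untreated cells (horizontal axis) of each tested gene, with the 42 genes by role above the line and the related lists below it. Points are red where higher, blue where lower and grey where the gene did not pass; bars are list medians and the dashed line is the median of all genes tested, 0.18. COPI genes lie mostly left of 0, at a median of -0.69, and degradation genes mostly right of it, at 0.78.

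Call by call, 6 of the 13 genes past the threshold held under every setting that gave them a value: ERO1, ERV29, CPR5, SEC63, LHS1 and SEC31. ROT1 and SEC11 were lost only against a minimum change of 0.5. The other 5 were lost under at least 1 left-out array, and no called gene changed sign under any of the 10 settings.

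**Figure D5:**
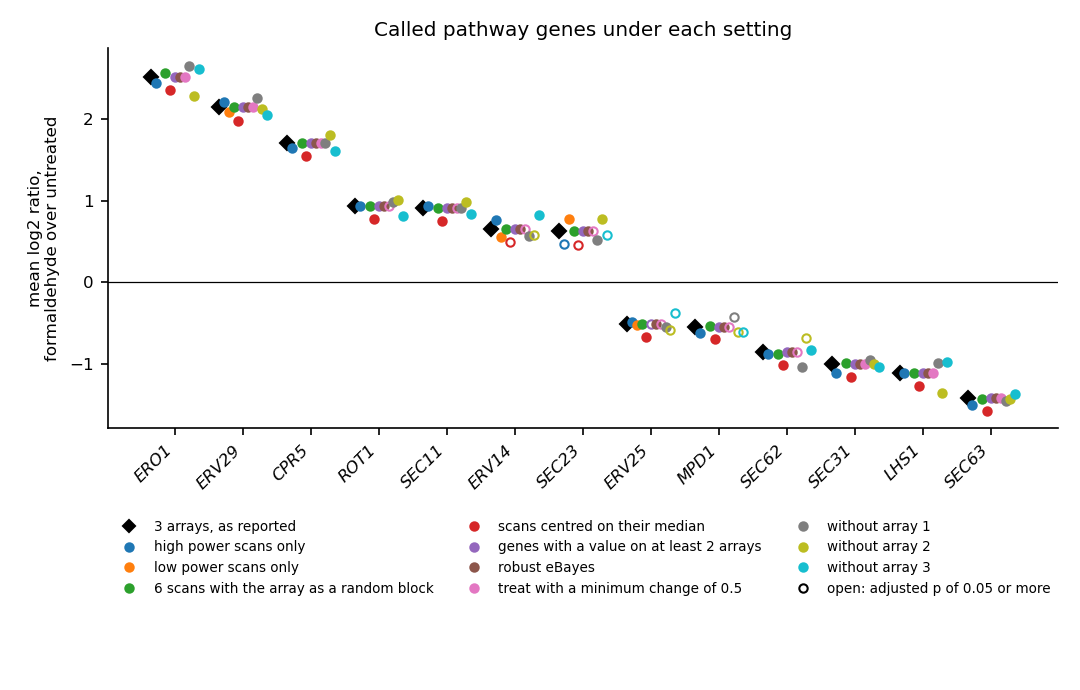
Mean log2 ratio of formaldehyde-exposed over untreated cells (vertical axis) of the 13 ER and transport genes past the threshold, under the reported setting (black diamond) and each alternative (coloured circles). Open symbols have an adjusted p of 0.05 or more. Points of ERO1, ERV29, CPR5, SEC31, LHS1 and SEC63 are all filled, and no gene crosses 0.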

How the data were processed

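Gene expression was measured on 3 two-colour arrays (6 scans) of formaldehyde-exposed against untreated yeast. The deposited values are log2 ratios, for which the authors ran LOWESS normalisation per scan on spots with flag 0, as the labels describe. Base 2 was read from the minimum, -6.64, which is the log2 of 0.01. Intensities were not used here, so signal over background is unknown, and the number of arrays and the agreement of their scans limit precision. Of 6912 probes, 5446 carried 1 gene symbol and 1466 none; the 5379 gene identifiers all matched RefSeq.

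Probes of a gene were averaged, then the scans of an array. The fit of each mean ratio used limma (version 3.58.1, under R 4.3.3) with its eBayes step, which added 4.84 prior degrees of freedom to 2, over the 2133 genes with 3 arrays, at a Benjamini-Hochberg adjusted p of 0.05. Errors are SDs. Pearson's r across genes between arrays was 0.886 to 0.948. The 42 genes, the lists and the settings were chosen with earlier results of these data known. All 42 genes are named, and of each related list up to 3 called genes of largest change. Named besides are TRL1 (no value), SRP21 (did not pass) and those said in the text to be named after their values were seen. Alternatives were each scan power, a random array block, centring, 2 arrays sufficing, robust eBayes, a minimum change of 0.5 and leaving out each array.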

Additional observations from a re-analysis of the deposited data

How the results depend on the processing

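As reported, 7 of 32 tested ER and transport genes were higher and 6 lower. Of 39 tested genes of related lists, 17 were higher and 8 lower (all 2133 genes: 37.2% and 25.3%). Where 2 arrays sufficed, 35 genes of the set were tested, 7 higher and 7 lower, and 50 list genes, 18 higher and 12 lower (all 3307 genes: 30.3% and 24.7%). With low power scans alone, 11 genes of the set could be tested, 4 higher and 2 lower, and 6 list genes, 3 higher and 3 lower (all 560 genes: 40.2% and 31.8%); fewer genes have such values. A minimum change of 0.5, a stricter rule, left 3 higher and 3 lower in the set, and 10 higher and 2 lower in the lists (all genes: 21.9% and 15.7%). Centring, which lowers all values, gave 5 higher and 12 lower in the set. In the lists it gave 12 higher and 10 lower (all genes: 31.5% and 30.1%). Leaving out each array in turn gave 6 to 8 higher and 4 to 5 lower in the set, and 11 to 17 higher and 7 to 8 lower in the lists (all genes: 28.8% to 41.7% higher, 21.3% to 25.4% lower).

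Signs turned only for genes of the set that did not pass. With high power scans alone FPR2 was at -0.0158, PDI1 at -0.12 and SEC72 at -0.11. With centred scans FPR2 was at -0.15, PDI1 at -0.13, MPD2 at -0.0086, SEC72 at -0.13 and EMP24 at -0.0613. With the random array block FPR2 was at -0.0012. Over the left-out arrays FPR2 ran between -0.16 and 0.11, PDI1 between -0.23 and 0.21, SEC72 between -0.11 and 0.13, SPC1 between -0.29 and 0.0784, ERV46 between -0.24 and 0.0378, and EMP24 between -0.0408 and 0.21. Apart from the constructions named, the cause was not tested. Each ratio already pairs an exposed with an untreated culture on 1 array, so every fit is a paired one. Signal over background is unknown here, and fits on 2 arrays or on low power scans alone lean on the pooled variance.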
